A study of Mus musculus with 18 samples.

Results

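Bex1, a small X-linked gene, was followed over the 18 Affymetrix mouse Gene 1.0 ST arrays of a study of fibroblasts reprogrammed towards heart muscle cells. It is 1 of 19912 genes with a probe set that names a single gene, and that 1 probe set is described here. It was picked from these data for its difference between cardiomyocytes and cardiac fibroblasts and for time courses that ran in opposite directions in GFP+ and GFP- cells, so those values and the other pairwise Bex1 differences are given as a description without a test. Per the labels, all RNA came from CD1 mice and each of the 6 groups has 3 arrays that the submitters call biological replicates. The groups were GFP+ induced cardiomyocyte-like cells (iCMs) at 4 weeks and at 2 weeks, GFP- cells in which reprogramming had failed at 4 weeks and at 2 weeks, neonatal cardiomyocytes (CM) and neonatal cardiac fibroblasts (CF). The labels name neither the reprogramming factors nor the promoter behind GFP, and do not say whether the 3 samples of a group came from separate cultures, so the errors measure the spread between these samples, which may be technical. The labels call iCMs succeeded and GFP- cells failed fibroblasts, and fibroblasts kept in culture for the same 2 or 4 weeks without reprogramming were not analysed here.

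Bex1 belongs to the brain-expressed X-linked family, small adaptor proteins that share a stretch of the mouse X chromosome with the related Tceal (transcription elongation factor A-like) genes. Bex1 is abundant in neurons and neuroendocrine cells, binds the neurotrophin receptor Ngfr and calmodulin, and is induced in regenerating skeletal muscle. In the mouse heart it has been described as part of a ribonucleoprotein complex that stabilises AU-rich messenger RNAs of inflammatory genes.

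The values are log2 intensities that the authors made with RMA, which corrects background, normalises across arrays and summarises the probes of a probe set. Array medians ran from 7.32 to 7.45 log2 and arrays of 1 group correlated at r = 0.990 to 0.996 over genes, with 3 arrays a group setting the precision. The lowest 25th percentile of any array, 6.16 log2, was taken as the level under which a signal is not above background, a limit chosen with the data in view. Averaged over 12 cardiomyocyte genes, the log2 level ran from 11.41 to 11.53 in 4-week iCMs, 10.67 to 11.14 in 2-week iCMs, 8.04 to 8.14 in 4-week GFP- cells, 7.85 to 8.36 in 2-week GFP- cells, 12.84 to 12.90 in CM and 7.33 to 7.44 in CF. Averaged over 12 fibroblast genes it ran from 8.80 to 9.61 in the iCM and GFP- groups, 9.92 to 10.23 in CM and 10.78 to 11.11 in CF. The mean over 10 macrophage genes such as Adgre1 and Csf1r ran from 9.23 to 10.10 log2 in both iCM groups and 11.96 to 12.17 in both GFP- groups. It ran from 6.49 to 6.65 in CM and 11.80 to 12.01 in CF. The arrays labelled CF and GFP- thus carried macrophage signal, and the iCM arrays carried less of it but more than CM. CM carried endothelial genes such as Cdh5 (list mean over 8 genes 8.65 to 8.84 log2), against 6.66 to 6.80 in CF. The part of these other cell types in the Bex1 values was not tested, and in such bulk samples fewer cells of a type and less RNA per cell cannot be told apart.

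RefSeq's GRCm38.p6 promoter table holds all 12 Bex and Tceal genes looked up, and only the 250 bases before each annotated start are used. Bex1 (chrX:136215514-136215763, minus strand) and Bex4 (chrX:136138746-136138995, plus strand) are shown because Bex4 had the array pattern most like Bex1, and their promoters share an identical run of 221 bases, in capitals. Counted from the start site, it spans positions -221 to -1 of Bex1 and -227 to -7 of Bex4.
Bex1 promoter: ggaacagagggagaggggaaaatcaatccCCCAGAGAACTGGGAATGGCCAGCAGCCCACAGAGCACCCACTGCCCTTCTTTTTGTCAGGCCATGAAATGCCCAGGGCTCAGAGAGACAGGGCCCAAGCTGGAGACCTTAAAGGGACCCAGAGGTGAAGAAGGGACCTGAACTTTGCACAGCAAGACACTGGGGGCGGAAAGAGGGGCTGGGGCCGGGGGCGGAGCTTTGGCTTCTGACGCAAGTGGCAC
Bex4 promoter: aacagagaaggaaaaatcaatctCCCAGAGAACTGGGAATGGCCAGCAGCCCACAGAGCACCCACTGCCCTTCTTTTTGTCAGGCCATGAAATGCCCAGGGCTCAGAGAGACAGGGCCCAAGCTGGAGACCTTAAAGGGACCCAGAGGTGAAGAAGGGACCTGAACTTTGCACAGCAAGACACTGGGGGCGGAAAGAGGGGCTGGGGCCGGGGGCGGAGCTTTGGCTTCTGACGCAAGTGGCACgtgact
Bex2 (chrX:136068237-136068486, minus strand) and Bex3 (chrX:136270003-136270252, plus strand) are shown as the other pair with a long common run, of 145 bases in capitals.
Bex2 promoter: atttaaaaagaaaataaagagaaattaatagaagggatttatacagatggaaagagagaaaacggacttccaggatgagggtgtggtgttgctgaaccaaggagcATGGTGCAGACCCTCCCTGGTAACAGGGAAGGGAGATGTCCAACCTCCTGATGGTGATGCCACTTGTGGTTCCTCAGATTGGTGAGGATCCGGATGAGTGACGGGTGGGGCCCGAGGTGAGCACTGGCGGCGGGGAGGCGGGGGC
Bex3 promoter: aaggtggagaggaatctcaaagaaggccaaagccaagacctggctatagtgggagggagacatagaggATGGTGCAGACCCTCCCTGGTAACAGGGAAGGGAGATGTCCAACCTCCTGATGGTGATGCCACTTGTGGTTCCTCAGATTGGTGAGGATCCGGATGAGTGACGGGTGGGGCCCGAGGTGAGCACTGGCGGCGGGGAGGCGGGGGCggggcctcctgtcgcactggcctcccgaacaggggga
A local alignment of the Bex1 and Bex4 windows held 237 identical bases in 240 columns (98.8%), and that of Bex2 and Bex3 held 148 in 149 (99.3%). No other pair of the 12 shared a run of more than 12 bases. On either strand, the GATA motif GATAA (in 22.58% of 32851 promoter windows of the same length), the MEF2 motif (3.2%) and the T-box motif AGGTGT (11.83%) were in none of the 4 printed windows. The GC box GGGCGG (32.74%) was in Bex1, Bex4 and Bex3, and the loose E-box CANNTG (66.22%) was in all 4. The palindromic E-box CACGTG (6.02%), which overlaps the loose one and was looked up after the sequences had been seen, was in Bex4, where it spans the right end of the shared run, and not in Bex1. The TATA box letters TATAAA (12.37%, either strand) were in Bex2 and in no other family member. In Bex2 they lie on the opposite strand, as TTTATA near the upstream end of the window, so they do not mark a TATA box at its start site. A match describes letters, and no match says only that these letters are not in the window.

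Bex1 was high in cardiomyocytes, intermediate in every reprogrammed or GFP- culture and below background in fibroblasts. It had 8.30, 8.98 and 9.44 log2 in the 4-week iCM arrays, 9.85, 9.58 and 9.96 in the 2-week iCM arrays, 8.80, 8.69 and 9.12 in the 4-week GFP- arrays, 7.66, 7.77 and 7.40 in the 2-week GFP- arrays, 11.19, 11.18 and 10.96 in CM, and 3.99, 4.13 and 4.06 in CF. From high to low the group means stood in the order CM (11.11 ± 0.13, SD, n = 3 in each group), 2-week iCMs (9.80 ± 0.19), 4-week iCMs (8.90 ± 0.57), 4-week GFP- cells (8.87 ± 0.22), 2-week GFP- cells (7.61 ± 0.19) and CF (4.06 ± 0.07). The arrays of 4-week iCMs and 4-week GFP- cells overlapped, and those of every other pair of neighbours in this order did not. The 4-week iCM arrays spread most, with replicate 1 lowest and replicate 3 highest.

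**Figure D1:**
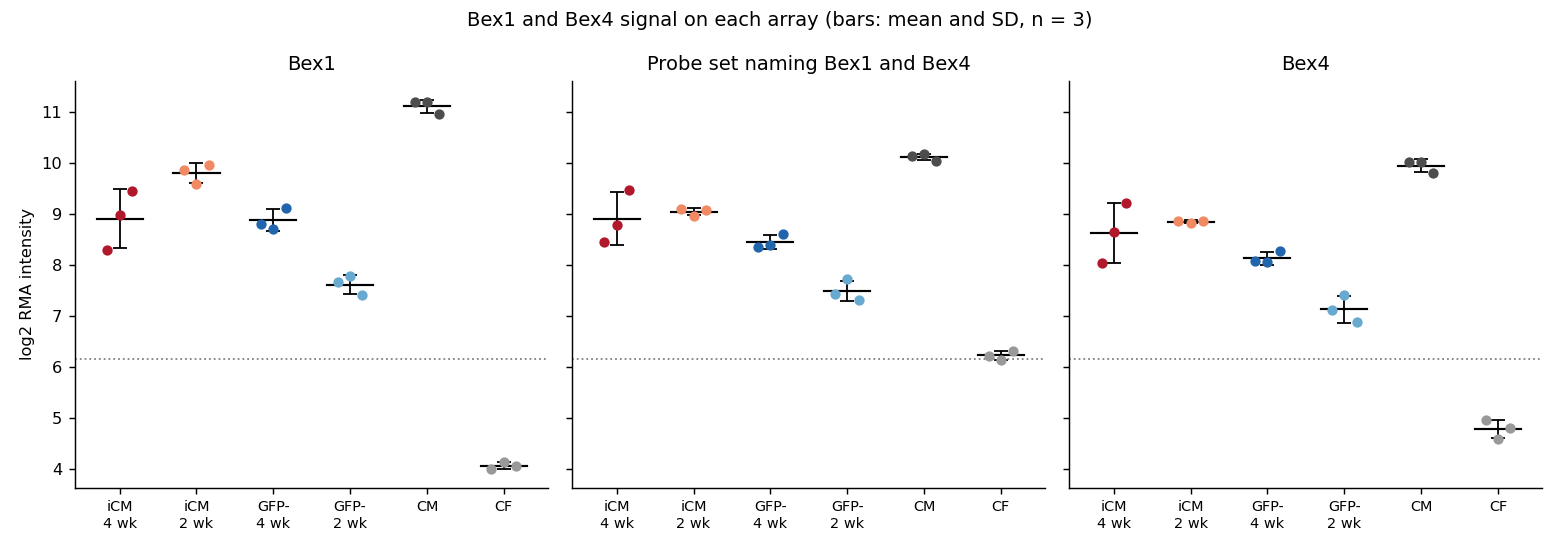
Log2 RMA intensity (y axis) of Bex1, of the probe set that names both Bex1 and Bex4, and of Bex4 on each of 18 arrays, by group (x axis); points are arrays, bars the mean and SD of 3 arrays, and the dotted line the background limit of 6.16 log2. All 3 probe sets are highest in CM, lowest in CF and higher in 4-week than in 2-week GFP- cells, and the 4-week iCM arrays are the most spread in each.

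Of the differences that chose the gene, CM minus CF was 7.05 ± 0.19 log2 (SE from limma), the largest fitted positive difference of the 19912 genes. The CF mean lay under the background limit, so that the signal shows a difference of at least 4.95 log2 and the rank rests on signal below background. Actc1 and Fabp3, with CF above the limit, differed by 6.48 and 5.72 log2. Bex1 differed by -0.89 ± 0.19 between 4-week and 2-week iCMs and by 1.26 ± 0.19 between 4-week and 2-week GFP- cells. The gap of -2.16 ± 0.27 between those time changes ranked 7 by size among 19912 genes. Without 4-week iCM replicate 1 the iCM time difference was -0.59 and the gap -1.85.

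Against fibroblasts, the fitted Bex1 differences were 4.84 ± 0.19 log2 for 4-week iCMs, 5.74 ± 0.19 for 2-week iCMs, 4.81 ± 0.19 for 4-week GFP- cells and 3.55 ± 0.19 for 2-week GFP- cells. With CF at the background limit, Bex1 was at least 2.75 log2 higher in 4-week iCMs, 3.64 in 2-week iCMs, 2.71 in 4-week GFP- cells and 1.45 in 2-week GFP- cells. All 4 share the CF arrays. Cells labelled as failed thus had Bex1 above background, with the lowest GFP- array at 7.40 log2, where the highest CF array had 4.13. Against CM, Bex1 was lower by 2.21 ± 0.19 log2 in 4-week iCMs and by 1.31 ± 0.19 log2 in 2-week iCMs.

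The mean of both iCM groups minus the mean of both GFP- groups is another contrast than those that chose the gene, and was tested. It uses the same arrays, Bex1 was chosen as high in CM, and most cardiac genes were higher in iCMs too. Its p makes no allowance for that choice and is not independent support. Bex1 was higher in GFP+ iCMs, at 9.35 log2 averaged over 4 and 2 weeks, against 8.24 in GFP- cells, a difference of 1.11 ± 0.14 log2 or 2.16-fold (95% interval 0.82 to 1.40 log2, limma adjusted p = 9.5e-07 over all genes). An exact two-sided permutation of the GFP labels within each time gave p = 0.05 over 400 arrangements, the smallest possible being 0.005. In that comparison 42.7% of all genes were called at an adjusted p under 0.05, 21.1% higher and 21.6% lower, and Bex1 ranked 623 from the highest difference. The excess was carried by the 2-week cells, at 9.80 against 7.61 log2 (2.19 ± 0.19), while the 4-week cells had 8.90 against 8.87 (0.03 ± 0.19, 95% interval -0.37 to 0.44). Without 4-week iCM replicate 1 the 4-week difference was 0.33, and with array weights, which lower the weight of arrays that depart from their group, it was 0.43.

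Bex4, the paralog with the shared promoter run, had a signal that followed Bex1. It had 8.04, 8.64 and 9.21 log2 in 4-week iCMs, 8.85, 8.81 and 8.86 in 2-week iCMs, 8.07, 8.05 and 8.27 in 4-week GFP- cells, 7.10, 7.41 and 6.87 in 2-week GFP- cells, 10.01, 10.02 and 9.80 in CM, and 4.95, 4.59 and 4.79 in CF. As with Bex1, CM lay above and CF below all other arrays, and 4-week iCM replicate 1 was the lowest and replicate 3 the highest of its group. A further probe set that names both genes had 8.45, 8.79 and 9.47 log2 in 4-week iCMs, 9.09, 8.96 and 9.07 in 2-week iCMs, 8.34, 8.39 and 8.60 in 4-week GFP- cells, 7.43, 7.71 and 7.31 in 2-week GFP- cells, 10.12, 10.16 and 10.04 in CM, and 6.22, 6.13 and 6.32 in CF. The 2 genes have near-identical promoters and RefSeq lists Bex4 as a synonym of Bex1 and Bex1 as a synonym of Bex2. Symbols are those of the platform annotation, and how far signal is shared between the probes of these genes was not tested.

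Bex4 rose in GFP+ iCMs over GFP- cells by 1.11 ± 0.14 log2 over both times (limma adjusted p = 1.08e-06) and by 1.71 ± 0.19 at 2 weeks (adjusted p = 4.9e-07), and stood 0.50 ± 0.19 higher at 4 weeks, which missed the threshold (adjusted p = 0.055). In GFP- cells it was 1.00 ± 0.19 log2 higher at 4 weeks than at 2 weeks (adjusted p = 0.00129), and in iCMs it differed by -0.22 ± 0.19 (adjusted p = 0.558). The time changes of iCMs and GFP- cells differed by -1.21 ± 0.28 (adjusted p = 0.0145). Since signal shared with the Bex1 probes was not tested, these Bex4 tests are not independent of the choice of Bex1. CM minus CF was 5.17 log2 as fitted and at least 3.79 with CF at the background limit, and 4-week GFP- cells minus CF was 3.35 as fitted and at least 1.97.

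Of the 11 other Bex and Tceal genes, 9 were measured by a probe set of their own, and Tceal3 and Tceal7 were not. Over both times, 4 of the 9 rose in iCMs over GFP- cells and none fell, beside the 21.1% and 21.6% of all genes given above. They were Bex4, Bex2 (0.47 ± 0.12 log2, adjusted p = 0.00247), Tceal1 (0.35 ± 0.10, adjusted p = 0.00694) and Tceal8 (0.34 ± 0.06, adjusted p = 7.55e-05). Bex3, which binds Ngfr and takes part in its death signalling, had 12.21 against 12.16 log2 (0.05 ± 0.07, adjusted p = 0.637), and Bex6 lay below the background limit in every group mean. The median difference of the 9 was 0.12 log2, beside 0.02 over all genes.

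**Figure D2:**
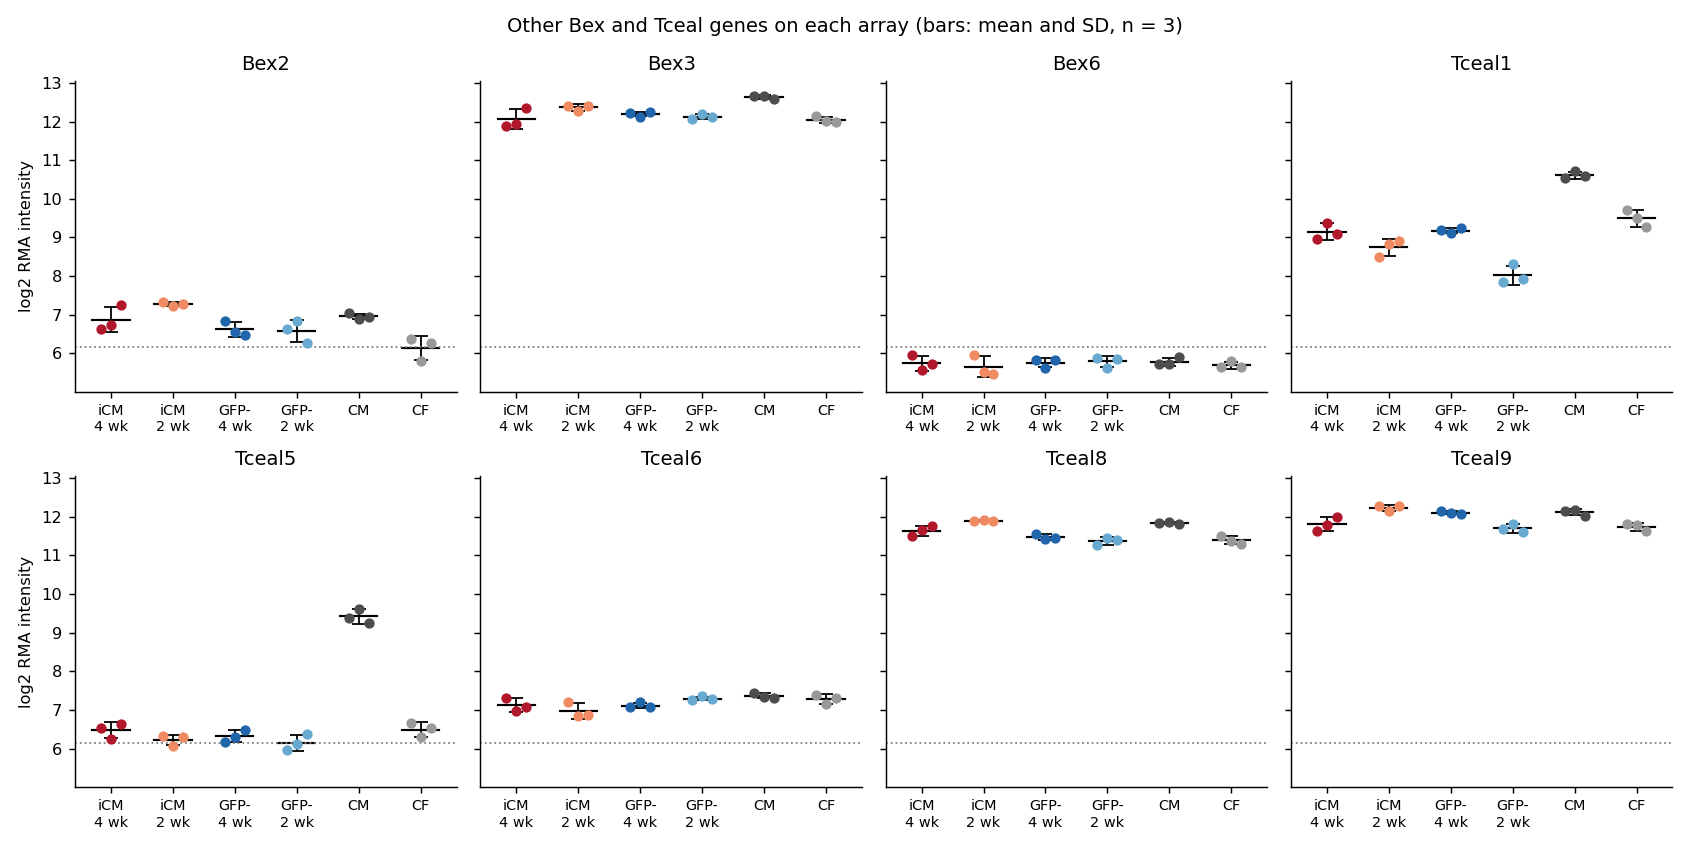
Log2 RMA intensity (y axis) of the 8 other measured Bex and Tceal genes on each array, by group (x axis); points are arrays, bars the mean and SD of 3 arrays, and the dotted line the background limit of 6.16 log2. In the Tceal1 panel the 2-week GFP- arrays (7.84 to 8.30) lie below those of every other group, and Tceal5 is high in CM alone (9.25 to 9.62).

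At 2 weeks most of the measured family differed between GFP+ and GFP- cells: 5 of 9 rose and 1 fell in iCMs (34.5% of all genes called, 16.2% higher and 18.4% lower). They were Bex4, Tceal1 (0.73 ± 0.14), Bex2 (0.70 ± 0.17), Tceal9 (0.54 ± 0.10) and Tceal8 (0.53 ± 0.09) on the rising side and Tceal6 (-0.32 ± 0.11) on the falling side. The Tceal6 call (adjusted p = 0.0252) was lost under 4 of 27 alternatives, with only the groups compared (adjusted p = 0.0694) and without 2-week iCM replicate 2 (0.128), 2-week iCM replicate 3 (0.107) or 2-week GFP- replicate 2 (0.0753). At 4 weeks none rose and 1 fell, Tceal9 (-0.30 ± 0.10, adjusted p = 0.0165), beside 34.2% of all genes called, 17.2% higher and 17.1% lower. The adjusted p of Tceal9 was 0.0616 with array weights, 0.109 without 4-week iCM replicate 1 and 0.0603 without 4-week GFP- replicate 1. The difference between the counts of 2 and 4 weeks was tested only gene by gene, as a difference of time changes.

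Family genes called over time rose in GFP- cells and fell in iCMs. In 4-week over 2-week GFP- cells 3 of 9 rose and none fell (17.4% of all genes called, 7.16% higher and 10.2% lower), namely Tceal1 (1.16 ± 0.14, adjusted p = 1.25e-05), Bex4 and Tceal9 (0.41 ± 0.10, adjusted p = 0.00495). In 4-week over 2-week iCMs none rose and 2 fell (11.5% called, 4.29% higher and 7.24% lower), Tceal9 (-0.43 ± 0.10, adjusted p = 0.00551) and Tceal8 (-0.27 ± 0.09, adjusted p = 0.0492). The Tceal8 call was lost under 18 of 27 alternatives, with adjusted p up to 0.188 (without 4-week iCM replicate 1). The iCM time change was lower than that of GFP- cells for Bex4, Tceal9 (-0.84 ± 0.13, adjusted p = 0.00101) and Tceal1 (-0.76 ± 0.20, adjusted p = 0.0345), and higher for none (3.94% of all genes called, 1.86% higher and 2.08% lower).

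Tceal1 is given by array. Its mean in iCMs did not fall over time as that of Bex1 did, with 4-week minus 2-week iCMs at 0.39 ± 0.14 log2 (limma adjusted p = 0.0771). It had 8.96, 9.39 and 9.09 log2 in 4-week iCMs, 8.50, 8.84 and 8.91 in 2-week iCMs, 9.19, 9.10 and 9.24 in 4-week GFP- cells, 7.84, 8.30 and 7.92 in 2-week GFP- cells, 10.54, 10.72 and 10.58 in CM, and 9.71, 9.50 and 9.27 in CF. Unlike Bex1 it had signal in fibroblasts, above all arrays of 2-week GFP- cells. Its difference of time changes lost the call under 11 of 27 alternatives, with adjusted p up to 0.105. It was lost without 2-week GFP- replicate 1 or 3, 2-week iCM replicate 2 or 3, 4-week iCM replicate 1 or 3, or any 1 of the 4-week GFP- arrays.

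Between the cell types of the heart, 7 of the 9 family genes were higher in CM than in CF and none lower (41.0% of all genes called, 19.6% higher and 21.5% lower). Beside Bex4 they were Tceal5 (2.93 ± 0.13 log2), Tceal1 (1.12 ± 0.14), Bex2 (0.82 ± 0.17 as fitted, at least 0.70 with CF at the background limit), Bex3 (0.59 ± 0.10), Tceal8 (0.45 ± 0.09) and Tceal9 (0.37 ± 0.10). Tceal5 had 9.39, 9.62 and 9.25 log2 in CM and 6.66, 6.30 and 6.53 in CF, and stayed between 5.96 and 6.65 on all 12 iCM and GFP- arrays. In 4-week GFP- cells over CF, 2 of 9 rose and none fell, Bex4 and Tceal9 (0.37 ± 0.10, adjusted p = 0.014), beside 11.5% of all genes called, 5.79% higher and 5.7% lower. Without 4-week GFP- replicate 1 or CF replicate 3 the Tceal9 adjusted p was 0.06 and 0.0803.

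The stretch of the X chromosome around Bex1 was read through the 15 protein-coding genes on either side of it in the RefSeq annotation, of which 22 of 30 were measured. Over both times, 10 of the 22 rose in iCMs over GFP- cells and none fell (21.1% higher and 21.6% lower over all genes), with a median of 0.19 log2 beside 0.02 over all genes. The 22 include 7 of the Bex and Tceal genes above, and Bex4, Bex2, Tceal1 and Tceal8 are 4 of the 10 that rose. Largest was Tcp11x2, a testis-expressed gene, at 8.23 log2 in iCMs and 5.49 in GFP- cells, at least 4.22-fold higher with GFP- cells at the background limit (adjusted p = 1.19e-10). Bhlhb9, an armadillo-repeat protein of the Armcx group, was 1.64 ± 0.19 log2 higher (adjusted p = 4.96e-07). In the Armcx and Gprasp group, which overlaps the neighbours in Armcx5 and Bhlhb9, 5 of 7 measured genes rose and none fell (21.1% and 21.6% over all genes), among them the mitochondrial protein gene Armcx1 (1.15 ± 0.09, adjusted p = 8.88e-10).

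**Figure D3:**
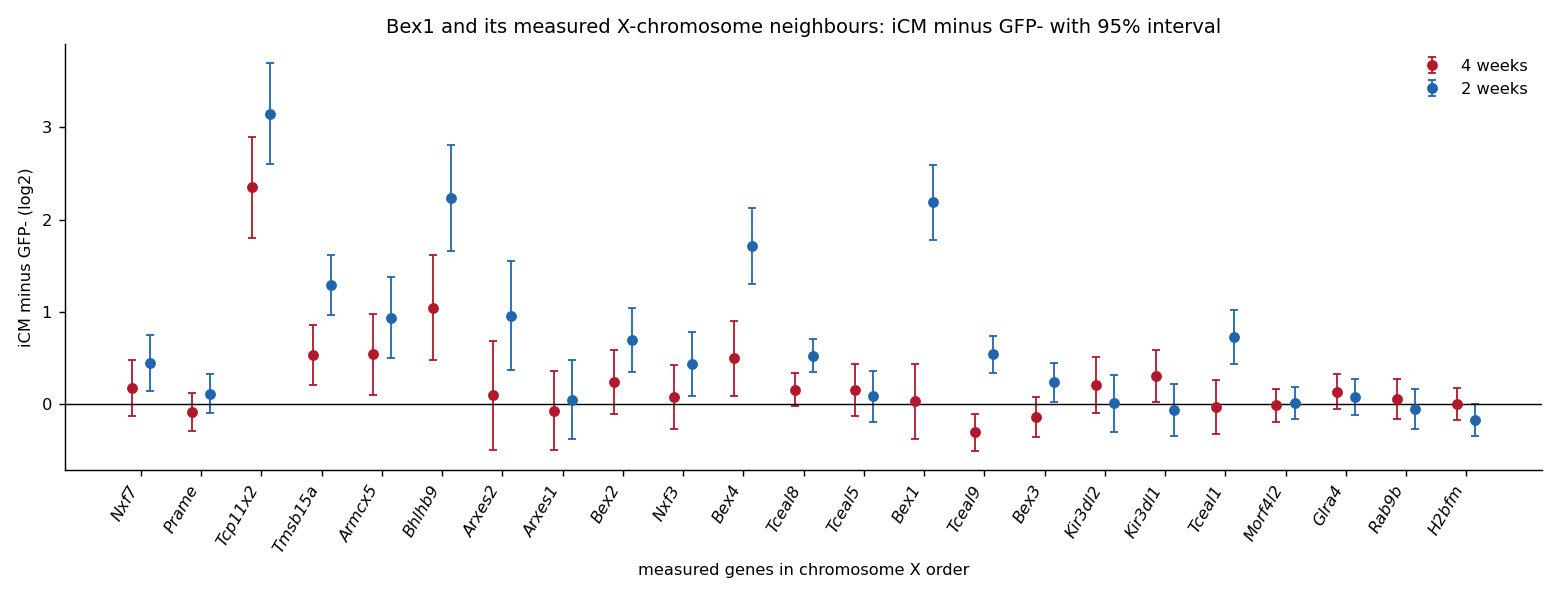
Difference of iCMs minus GFP- cells on the log2 scale (y axis) for Bex1 and its 22 measured X-chromosome neighbours in chromosome order (x axis), with 4 weeks in red and 2 weeks in blue; points are limma estimates and bars 95% intervals. Tcp11x2, Bhlhb9, Bex4 and Bex1 stand highest at 2 weeks, and at 4 weeks Bex1 lies at 0.03.

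Neighbours of Bex1 did not share 1 pattern. Tcp11x2 had 5.03 ± 0.24 log2 in CM and 4.78 ± 0.24 in CF (SD, n = 3 each), both below the background limit, unlike Bex1, which was highest in CM. Bhlhb9 had 8.63, 8.99 and 8.82 log2 in 4-week iCMs, 8.35, 9.03 and 8.94 in 2-week iCMs, 7.96, 7.72 and 7.63 in 4-week GFP- cells, 6.44, 7.44 and 5.73 in 2-week GFP- cells, 10.22, 10.16 and 10.05 in CM, and 8.16, 7.70 and 7.85 in CF. It rose with time in GFP- cells by 1.23 ± 0.27 log2 (adjusted p = 0.00366) with 2-week arrays that spread widely, and its difference of time changes missed the threshold (-1.19 ± 0.39, adjusted p = 0.0998).

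The receptor that Bex1 binds was nearly flat. Ngfr had 7.79 log2 in iCMs over both times and 7.68 in GFP- cells (0.11 ± 0.08, adjusted p = 0.306), and its 6 group means lay between 7.59 and 7.80. Of 17 measured neurotrophin pathway genes, 8 rose and 3 fell in iCMs, with a median of 0.11 log2. Over all genes 21.1% were higher and 21.6% lower, so that the count that fell was near the background. Sort1, the sorting receptor sortilin that pairs with Ngfr, rose by 1.74 ± 0.08 (adjusted p = 2.74e-13), Maged1, an intracellular partner of Ngfr, by 0.74 ± 0.07 (adjusted p = 1.61e-08), the neurotrophin Bdnf by 0.65 ± 0.10 and Sorcs2 by 0.64 ± 0.10. Sort1 had group means of 10.45 and 10.52 log2 in 4-week and 2-week iCMs, 8.58 and 8.90 in 4-week and 2-week GFP- cells, 9.08 in CM and 7.76 in CF, so that its iCM arrays lay above CM. Of 4 measured calmodulin and Olig genes, none rose and Calm3 fell (-0.49 ± 0.07).

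The neuronal genes with which Bex1 is usually listed stayed nearly level as a list. Over 21 measured neuronal genes the list mean stayed within 6.68 to 6.91 log2 on all 18 arrays, and 4 rose and 2 fell in iCMs over GFP- cells. Beside 21.1% of all genes higher and 21.6% lower, the rising count was near the background and the falling count under it. Tubb3, the neuronal tubulin, rose by 0.92 ± 0.17 and Syp, synaptophysin, fell by 0.57 log2. Among 9 neuroendocrine secretory genes 5 rose and 1 fell. Scg2, secretogranin II, had 11.99 log2 in iCMs and 9.36 in GFP- cells over both times (2.63 ± 0.15, adjusted p = 1.57e-11), against 6.73 ± 0.21 in CM and 7.40 ± 0.32 in CF (SD, n = 3 each), a pattern without the cardiomyocyte peak of Bex1. The peptide-processing enzymes Cpe (1.48 ± 0.10) and Pam (1.28 ± 0.09) rose, and the convertase Pcsk1 fell by 0.64 log2. Rest, the repressor of neuronal genes, was 0.20 ± 0.08 higher in iCMs (adjusted p = 0.041), within a REST complex list in which 2 of 5 rose and 2 fell. Of 6 measured Schwann and glia genes none rose and 1, Mbp, fell (-0.34 ± 0.07).

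AU-rich inflammatory messages, the class that Bex1 has been tied to in the mouse heart, were mostly lower in iCMs, where Bex1 was higher over both times. In iCMs over GFP- cells 13 of 18 fell and 1 rose (21.6% lower and 21.1% higher over all genes), with a median of -1.001 log2. The chemokine Ccl3 fell by 2.89 log2 (adjusted p = 1.56e-16), Tnf by 2.29 (adjusted p = 1.64e-13), Cxcl2 by 1.97 (adjusted p = 1.63e-12) and Il1b by 1.78 log2 (adjusted p = 1.11e-09). All 10 macrophage genes fell in the same comparison, among them Adgre1 (-2.95 ± 0.15), and their part in these values was not tested. In CM over CF, where Bex1 differs most, 13 of the 18 were lower and none higher (21.5% lower and 19.6% higher over all genes), and all 10 macrophage genes were lower. Among 15 genes for AU-rich binding proteins 2 rose and 8 fell in iCMs, with the decay factors Zfp36l2 (-1.18 ± 0.10) and Zfp36 (-0.68 ± 0.08), Igf2bp3 (-0.74 ± 0.07) and Elavl2 (-0.64 ± 0.09) furthest down. Il6, like Bex1, was higher in 4-week than in 2-week GFP- cells (1.51 ± 0.19 log2, adjusted p = 2.06e-05), where its 2-week mean of 6.23 log2 lay just over the background limit. Unlike Bex1 it was lower in CM than in CF (-2.07 ± 0.19 log2, adjusted p = 2.08e-08). In 4-week over 2-week iCMs Il6 was lower, like Bex1 (-0.62 ± 0.19 log2, limma adjusted p = 0.044), though its 4-week mean lay under the background limit. The time change was lower in iCMs than in GFP- cells for Il6 (-2.13 ± 0.27, adjusted p = 0.000188), Il1b (-1.19 ± 0.28, 0.0165) and Ccl3 (-0.93 ± 0.15, 0.00128). It was also lower for Ptgs2 (-1.20 ± 0.26, limma adjusted p = 0.01), Ccl2 (-0.94 ± 0.19, 0.00623) and Ccl7 (-0.72 ± 0.17, 0.0192). It was not called for Cxcl2 (-0.66 ± 0.20, 0.0764) or Tnf (-0.08 ± 0.20, 0.903), among others, and no gene of this list was called higher. Over all genes 1.86% were called higher and 2.08% lower.

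Most cardiac genes were higher in GFP+ than in GFP- cells. Over both times, 11 of 12 cardiomyocyte genes and 11 of 11 fetal and stress heart genes rose and none fell (21.1% higher and 21.6% lower over all genes). Casq2, calsequestrin, rose by 4.47 ± 0.20 log2, Ttn, titin, by 4.33 ± 0.11, Myh6, the alpha-myosin heavy chain, by 4.28 ± 0.15, Actc1, cardiac actin, by 3.95 ± 0.19 and Nppa, atrial natriuretic peptide, by 3.58 ± 0.15. The factors commonly used for cardiac reprogramming rose in iCMs as well, Tbx5 by 2.52 ± 0.08, Gata4 by 1.67 ± 0.09 and Mef2c by 0.69 ± 0.09, on probes that may read an introduced copy too. In 4-week over 2-week iCMs, where Bex1 differed by -0.89, 5 of the 12 cardiomyocyte genes rose and none fell (4.29% and 7.24% over all genes), with Pln, phospholamban, at 2.06 log2, Myh6 at 1.35 and Actn2, the Z-disc protein alpha-actinin, at 1.15. Other heart genes went both ways there. Nppa (-0.96 ± 0.21, limma adjusted p = 0.00504) and Nppb (-1.03 ± 0.16, 0.000383) fell like Bex1. Myh7 (0.43 ± 0.08, 0.00149) and Acta1 (0.39 ± 0.10, 0.0181) rose.

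Placed between CF at 0 and CM at 100% on the log2 scale, Bex1 lay at 68.7 ± 8.1% in 4-week iCMs, 81.4 ± 2.7% in 2-week iCMs, 68.3 ± 3.1% in 4-week GFP- cells and 50.4 ± 2.7% in 2-week GFP- cells (SD, n = 3 each). The median of the 12 cardiomyocyte genes lay at 85.0 ± 2.3% in 4-week iCMs, 74.9 ± 3.9% in 2-week iCMs, 8.17 ± 2.16% in 4-week GFP- cells and 10.3 ± 3.6% in 2-week GFP- cells. On every GFP- array Bex1 lay further towards CM than the cardiomyocyte genes did. On the linear scale Bex1 lay at 22.2% in 4-week iCMs, 40.0% in 2-week iCMs, 20.7% in 4-week GFP- cells and 8.19% in 2-week GFP- cells, and the cardiomyocyte genes lay at 52.8, 37.8, 0.74 and 1.28% in the same groups. The 4-week iCM replicate 1, with the lowest Bex1 of its group (60.1% on the log2 scale), had the cardiomyocyte genes at 86.2%. Since CF lies under the background limit for Bex1, its log2 positions rest on a lower end that is only a bound.

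**Figure D4:**
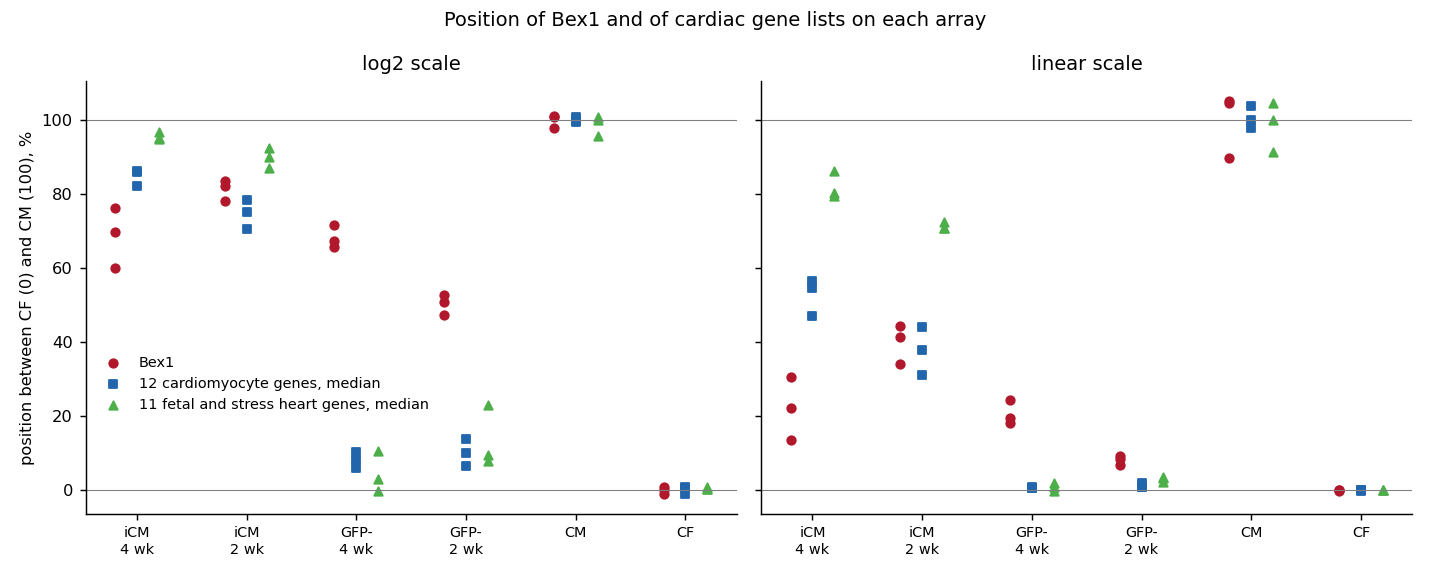
Position between the CF mean (0) and the CM mean (100) in percent (y axis) on each array by group (x axis), for Bex1 and for the medians of 12 cardiomyocyte genes and 11 fetal and stress heart genes, on the log2 scale (left) and the linear scale (right). In both GFP- groups Bex1 lies above both gene lists on every array, and in 4-week iCMs it lies below both.

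In GFP- cells, where Bex1 was higher at 4 than at 2 weeks, most endothelial genes were higher at 4 weeks as well. In 4-week over 2-week GFP- cells, none of the 12 cardiomyocyte genes was called in either direction, and 5 of 8 endothelial genes rose and none fell (7.16% higher and 10.2% lower over all genes). Emcn, endomucin, had 11.06 ± 0.15 log2 at 4 weeks and 9.09 ± 0.15 at 2 weeks (adjusted p = 1.13e-07), Pecam1 had 9.44 ± 0.38 and 7.75 ± 0.09 (adjusted p = 1.82e-07), and Cdh5, VE-cadherin, had 10.41 ± 0.27 and 8.74 ± 0.12 (adjusted p = 2.05e-08, SD, n = 3 each). Kdr had a lower mean at 4 weeks but was not called (-0.42 ± 0.15 log2, SE, limma adjusted p = 0.0538), and Tie1 (0.03 ± 0.09) and Esam (0.03 ± 0.11) were level. The mean over the 8 endothelial genes ran from 7.13 to 7.19 log2 in 4-week iCMs, 6.84 to 6.96 in 2-week iCMs, 8.35 to 8.73 in 4-week GFP- cells and 7.72 to 7.87 in 2-week GFP- cells. The endothelial mean was lowest of these in 2-week iCMs, the group with the highest Bex1 of the 4, and the part of endothelial cells in the Bex1 signal was not tested. Fibroblast genes moved over time in GFP- cells too, in both directions. Lum (3.31 ± 0.17 log2), Dcn (1.44 ± 0.14) and Pdgfra (0.65 ± 0.12) rose, while Col1a1 (-0.64 ± 0.12), Col1a2 (-0.60 ± 0.12) and Vim (-0.33 ± 0.08) fell. Their part in the Bex1 values was not tested either. Over CF, 7 of 8 endothelial genes rose in 4-week GFP- cells (5.79% higher and 5.7% lower over all genes), with Emcn at least 28.3-fold higher and Cdh5 higher by 3.65 ± 0.12 log2. Of the 12 cardiomyocyte genes 5 rose there, Actc1 (2.24 ± 0.26), Myl7 (1.88 ± 0.16), Tnnt2 (1.41 ± 0.16), Ryr2 (0.94 ± 0.10) and Ttn (0.53 ± 0.16), while Pln (0.03 ± 0.25) and Actn2 (-0.05 ± 0.12) did not pass the test.

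The remaining lists are given as counts over both times in iCMs against GFP- cells, a comparison with 21.1% of all genes higher and 21.6% lower. Of 8 smooth muscle genes 5 rose and none fell, with Des at 2.53 ± 0.23 and Acta2 at 2.01 ± 0.16 log2. Of 10 genes of muscle regeneration, a setting where Bex1 is induced in skeletal muscle, 2 rose and none fell, Des and the embryonic myosin Myh3 (0.16 ± 0.06), a share near the background. Of 11 cell cycle genes 2 rose and 8 fell, with Bub1 (-2.48 ± 0.14), Top2a (-2.29 ± 0.12) and Mki67 (-2.26 ± 0.11) furthest down. Of 12 fibroblast genes 3 rose and 6 fell, Lum falling by 2.29 and Thy1 rising by 2.13 log2.

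The genes whose levels ran most like Bex1 were ranked by Pearson's r over the 18 arrays among 1485 genes whose group means span at least 2 log2. These r describe 6 groups of 3 arrays that share all samples with Bex1, and carry no test. The 10 highest were Bex4 (r = 0.99), the Rag GTPase gene Rragd (0.97), Igf2r (0.94), Mest (0.92), Ablim1 (0.92), Tnnt2 (0.89), Airn (0.89), Fabp3 (0.87), Cgnl1 (0.86) and Actc1 (0.85). Only 5 genes had r over 0.9 and 27 over 0.8, and the median over the 1485 was -0.29. The lowest were Tnfsf8 (-0.95), Il1rap (-0.94) and Klrb1-ps1 (-0.94), which lay under the background limit in every group but CF. By the distance between centred group means, the nearest were Bex4 (0.61 log2), Fabp3 (1.06), Myl4 (1.13), Mest (1.14) and Tnnc1 (1.23).

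**Figure D5:**
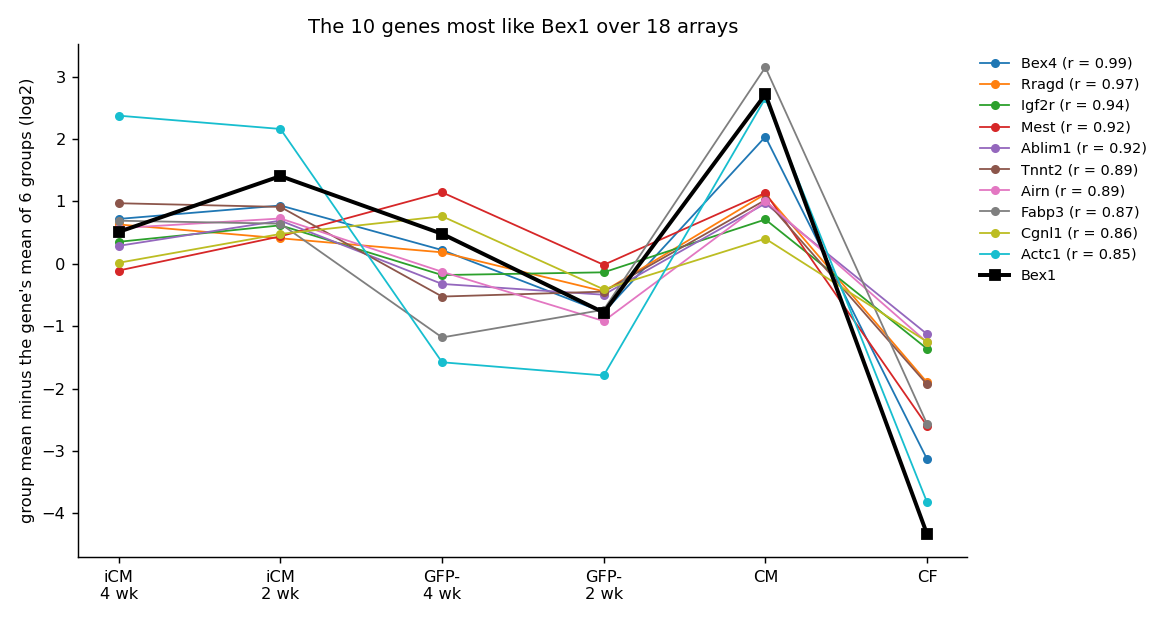
Group mean minus the gene's own mean of 6 groups on the log2 scale (y axis) for Bex1 (black) and the 10 genes with the highest Pearson's r with it over 18 arrays, by group (x axis). All are lowest in CF, and Rragd, Bex4, Airn, Mest and Cgnl1 share with Bex1 a clearly higher mean in 4-week than in 2-week GFP- cells, while Fabp3 has a lower one (-0.44 log2) and Igf2r (-0.04) and Tnnt2 (-0.08) lie close to level.

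The genes on that list were like Bex1 in different groups. Rragd had 9.01, 9.21 and 9.14 log2 in 4-week iCMs, 8.83, 8.83 and 9.03 in 2-week iCMs, 8.71, 8.70 and 8.61 in 4-week GFP- cells, 7.80, 8.43 and 7.92 in 2-week GFP- cells, 9.62, 9.65 and 9.55 in CM, and 6.66, 6.44 and 6.67 in CF. It shared with Bex1 the high CM, the low CF and the later GFP- gain, but not the lower mean of 4-week iCMs. Mest, an imprinted gene, had 9.58 and 10.13 log2 in 4-week and 2-week iCMs, 10.84 and 9.68 in 4-week and 2-week GFP- cells, 10.83 in CM and 7.10 in CF, and so had both time differences in the Bex1 direction but stood lower in iCMs than in GFP- cells at 4 weeks. With Spearman's rho 4 of the 10 genes stayed among the 10 highest, with Pearson's r over the 6 group means 9 did, and leaving out each array in turn kept 9 or 10.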

How the data were processed

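The 18 arrays came from total RNA (PicoPure kit) labelled with the MessageAmp II-biotin kit, per the labels' protocols. The deposited values are log2 intensities made by the authors with RMA, per the submitters' processing notes; its version is not given in the sources used here. RMA draws all arrays to 1 distribution, so differences are relative to the array as a whole. Of 28682 probe sets, 21755 name 1 gene in the platform annotation, 1592 several and 5335 none, and 21664 of the 1-gene probe sets matched a RefSeq gene ID. For 997 genes with several probe sets the one with the highest mean was kept.

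Groups were compared with limma 3.58.1 (lmFit, eBayes; R 4.3.3) over 19912 genes, with group as the only term, 12 residual degrees of freedom and Benjamini-Hochberg adjustment over all genes; a call is an adjusted p under 0.05. The script was tested on simulated data. A group mean under 6.16 log2 (lowest 25th percentile of an array) gives only a bound. The bound sets the brighter group's mean against the dim group's mean of, per array, the higher of this limit and the measured value. The members and lists were chosen with earlier results of these data known. Named genes are Bex1, its measured family, X neighbours and Armcx genes called with at least a 2-fold difference, up to 4 called members of each other list by size, set anchor genes (such as Gata4, Ngfr and Rest), and the genes most and least like Bex1 by Pearson's r; a few others fill out counts of 5 or fewer. The alternatives were other normalizations, array weights, an intensity trend, a filter on dim genes, all probe sets, a replicate block, only the groups compared and leaving out each array.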

Additional observations from a re-analysis of the deposited data

Results flagged for a closer look

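The 4-week minus 2-week change differed between GFP+ iCMs and GFP- cells for 3 genes of the Bex and Tceal family by a test of the difference itself. It was lower in iCMs by 1.21 ± 0.28 log2 for Bex4 (-1.21, limma adjusted p = 0.0145), by 0.84 ± 0.13 for Tceal9 (-0.84, adjusted p = 0.00101) and by 0.76 ± 0.20 for Tceal1 (-0.76, adjusted p = 0.0345). Bex4 ran with Bex1 at r = 0.99 over the 18 arrays, and how far their probes share signal was not tested. Its p is therefore not independent of the choice of Bex1 for this difference. The Tceal1 call was lost under 11 of 27 alternatives, with adjusted p up to 0.105. For Bex1 every array of 4-week iCMs lay below every array of 2-week iCMs, and every array of 4-week GFP- cells lay above every array of 2-week GFP- cells. That difference of -2.16 log2 was not tested, since the gene was chosen for it.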

How the results depend on the processing

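The tested Bex1 difference over both times kept its direction and call under all 27 alternatives, between 0.98 and 1.35 log2, with limma adjusted p from 6.42e-09 to 2.1e-05. No called difference turned its sign. Some that were not called did, among them Bex1 between 4-week cells and the Bex4 time difference in iCMs, which was 0.15 log2 with array weights and 0.08 without 4-week iCM replicate 1. Array weights moved Bex1 to 0.43 log2 in 4-week iCMs minus GFP- cells, -1.84 in the difference of time changes, 5.16 in 4-week iCMs minus CF and -1.89 minus CM. They also gave 5985 genes called over time in iCMs (2297 without weights), 6087 over time in GFP- cells (3465), 4191 in the difference of time changes (785) and 3720 in 4-week GFP- cells minus CF (2286). Family genes called with weights, in either direction, numbered 5 in the difference of time changes and 4 in 4-week GFP- cells minus CF. They numbered 9 over both times and 3 between 4-week cells, where 42.7% and 34.2% of all genes were called without weights. With only the groups compared, 1486 genes were called over time in iCMs. Called family genes numbered 2 between 4-week cells with quantile normalization, an intensity trend or no dim genes. Over time in iCMs they numbered 4 with quantile normalization or cyclic loess and 1 with centred medians, the replicate block or only the groups compared. The cause was not tested.

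Leaving out 1 array gave Bex1 -0.24 to 0.33 log2 between 4-week cells, -1.16 to -0.59 over time in iCMs, -2.42 to -1.85 in the difference of time changes, 4.58 to 5.15 in 4-week iCMs minus CF and -2.47 to -1.90 minus CM. Calls over all genes ran from 1289 (without 4-week iCM replicate 2) to 2491 over time in iCMs, with 1421 without 2-week iCM replicate 3, and from 514 (without 4-week GFP- replicate 1) to 1004 in the difference of time changes. Family calls ran from 0 (without 4-week GFP- replicate 1) to 2 (without 4-week iCM replicate 3 or 2-week GFP- replicate 2) between 4-week cells, 1 to 4 (without 4-week iCM replicate 3) over time in iCMs, and 1 (without 4-week GFP- replicate 1 or CF replicate 3) to 3 in 4-week GFP- cells minus CF.

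Replicate numbers gave no clear pairing over all groups: 15 of 45 same-numbered pairs correlated over 0.1 and 8 of 18 arrays correlated best with their own number. Same-numbered 4-week and 2-week iCM arrays correlated at 0.45, 0.34 and 0.08, and 2-week iCM and GFP- arrays at 0.27, 0.38 and -0.30. These counts cannot decide whether some samples shared a culture. With the replicate block the Bex1 difference was 1.11 log2 (limma adjusted p = 1.9e-06). Signal below background in CF limits every Bex1 difference from CF. With Spearman's rho 4 of the 10 genes most like Bex1 were shared, and on the linear scale its positions were 22.2, 40.0, 20.7 and 8.19% in 4-week iCMs, 2-week iCMs, 4-week GFP- and 2-week GFP- cells.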
